A study of Mus musculus with 3 samples.

Results

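The H/ACA box snoRNAs and the small RNAs of Cajal bodies were examined in extracellular vesicles (EVs) of the neonatal mouse testis. Members were the entries that the authors counted as snoRNA and whose description holds SNORA, SCARNA or Cajal body, with SNORA73 left out. There were 87 such entries among 494 snoRNA entries and 2780 small RNA entries in all. Of these, 70 were H/ACA snoRNAs, named SNORA below, and 17 were Cajal body RNAs, named SCARNA. An entry is a family of related RNAs in the Rfam database, not a single gene, and its count can join reads from several genes. Read length and coverage were not examined, so whole RNAs and fragments of them cannot be told apart.

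All 3 libraries came from 1 condition, EVs of testes taken at postnatal day 7 (PND7) from C57/BL6 males, with EVs of 10 mice pooled for each library. Testes freed of their capsule were digested to a cell suspension, EVs were isolated from its supernatant, and the EVs were treated with proteinase K, the protease inhibitor PMSF and RNase A before RNA extraction. The sample titles also carry the word treated, which the labels do not explain further, and no other group was analysed here. The EVs come from a whole organ, so more EVs of a cell type and more of an RNA per EV cannot be told apart, and the small RNA counts hold no marker mRNAs with which the cells of origin could be checked.

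H/ACA snoRNAs fold into a pair of hairpins separated by an H box and closed by an ACA box, and they guide the conversion of uridine to pseudouridine, mostly in ribosomal RNA. The C/D box snoRNAs, named SNORD, guide ribose methylation instead. Cajal body RNAs use the same boxes, in some cases both kinds in 1 molecule, but reside in Cajal bodies of the nucleus and guide modification of the spliceosomal snRNAs. Most RNAs of both kinds are cut from introns of other genes, many of them genes for ribosomal proteins and other parts of the translation machinery.

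Mouse genes were tied to the families by symbol in the GENCODE annotation of GRCm38, the assembly also called mm10. A gene was found for 36 of the 70 SNORA families and for 6 of the 17 Cajal body families. The following genes are shown since they belong to abundant families or carry the boxes and the overlaps described below. The first capitals mark a match to the H box letters ANANNA nearest the middle of the RNA, and the second, where present, mark ACA 3 bases from the 3′ end. Sequences are written 5′ to 3′ as DNA of the gene's own strand.
Snora7a: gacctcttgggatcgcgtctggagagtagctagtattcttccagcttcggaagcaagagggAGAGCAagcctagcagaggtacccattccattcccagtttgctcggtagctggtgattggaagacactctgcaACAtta
Snora70: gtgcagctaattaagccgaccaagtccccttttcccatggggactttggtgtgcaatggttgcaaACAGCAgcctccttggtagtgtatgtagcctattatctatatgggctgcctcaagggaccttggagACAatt
Snora81: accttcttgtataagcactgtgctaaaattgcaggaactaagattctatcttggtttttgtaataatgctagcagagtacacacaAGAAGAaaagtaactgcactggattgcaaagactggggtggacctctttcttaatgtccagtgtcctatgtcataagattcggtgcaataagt
Scarna8: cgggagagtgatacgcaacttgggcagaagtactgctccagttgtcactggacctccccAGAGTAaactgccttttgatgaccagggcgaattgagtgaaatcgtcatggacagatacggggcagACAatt
Scarna3a: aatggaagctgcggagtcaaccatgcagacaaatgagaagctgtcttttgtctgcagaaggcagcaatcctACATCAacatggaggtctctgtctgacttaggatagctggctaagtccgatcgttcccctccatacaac
Scarna3b: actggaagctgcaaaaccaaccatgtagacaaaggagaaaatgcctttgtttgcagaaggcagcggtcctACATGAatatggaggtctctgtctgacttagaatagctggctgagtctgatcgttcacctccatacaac

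Snora7a lies at chr6:115807975-115808114 on the minus strand within Rpl32, a ribosomal protein gene, and overlaps an exon of an annotated transcript of it. Snora70 lies at chrX:74272484-74272620 on the plus strand within Rpl10 and also overlaps an exon of its host. Snora81, at chr16:23110756-23110933 on the plus strand, lies within Eif4a2, a translation initiation factor gene, and overlaps an exon as well. Of the 39 matched SNORA gene entries, 21 overlapped an exon of an annotated host transcript, 14 lay in an intron and 4 had no host. Scarna8 lies at chr4:86586453-86586583 on the minus strand in an intron of Haus6, Scarna3a at chr1:159340283-159340422 on the plus strand in an intron of Cop1, and Scarna3b at chr12:80391613-80391751 on the minus strand in an intron of Dcaf5. ACA stood 3 bases from the 3′ end of 83.3% of the 42 annotated Snora genes, 22.2% of the 9 annotated Scarna genes and none of the 98 annotated Snord genes, against 19.3% of all 1558 annotated snoRNA and scaRNA genes. The letters ANANNA, searched on the gene's strand, were found in 91.8% of those 1558 genes and in 100% of the Snora genes, so this short match separates no class. In Snora81 and both Scarna3 genes ACA was not at that position in the annotated sequence.

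The libraries held 25716952, 26002463 and 27939308 clean reads, of which 242841, 135236 and 152322 were counted as snoRNA. The snoRNA class thus took 0.944%, 0.520% and 0.545% of all clean reads. Reads assigned to introns, the usual source of these RNAs, took 0.332%, 0.109% and 0.104% of the clean reads in the same order. Replicate 1 was highest for both, and the part of intron reads in the results below was not tested. A count of 3 reads corresponds to between 0.00124% and 0.00222% of the snoRNA reads of a library, which is the one-sided 95% limit used below for a count of 0. The 2-sided exact interval of a count of 0 ends higher, at 0.00152% to 0.00273%.

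Among the entries named by class, the SNORA families took fewer snoRNA reads than the SNORD families and more than the Cajal body RNAs. The 305 remaining entries, which include some H/ACA and Cajal body RNAs under other names, held 24.3%, 25.8% and 30.4% of the snoRNA reads. The SNORA families took 33627, 9432 and 15396 reads in replicates 1 to 3. These were 13.8% of the snoRNA reads (95% exact interval 13.7 to 14.0), 6.97% (6.84 to 7.11) and 10.1% (9.96 to 10.3), with a mean of 10.3% ± 3.44 (SD, n = 3). Replicate 1 held the highest and replicate 2 the lowest share, 1.99-fold apart, with no overlap of the intervals. As a share of clean reads the SNORA families held 0.131%, 0.0363% and 0.0551%, 3.60-fold apart.

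Cajal body RNAs took 6878, 3137 and 5573 reads in replicates 1 to 3. Their shares of the snoRNA reads were 2.83%, 2.32% and 3.66%, with a mean of 2.94% ± 0.676 (SD, n = 3). Here replicate 3 was highest and replicate 2 lowest, 1.58-fold apart. As a share of clean reads they held 0.0267%, 0.0121% and 0.0199%, with replicate 1 highest and 2.22-fold above replicate 2. Both kinds together made up 16.7%, 9.29% and 13.8% of the snoRNA reads (13.2% ± 3.72). The SNORD families held 58.6%, 64.5% and 55.0%, with a mean of 59.4% ± 4.76.

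**Figure D1:**
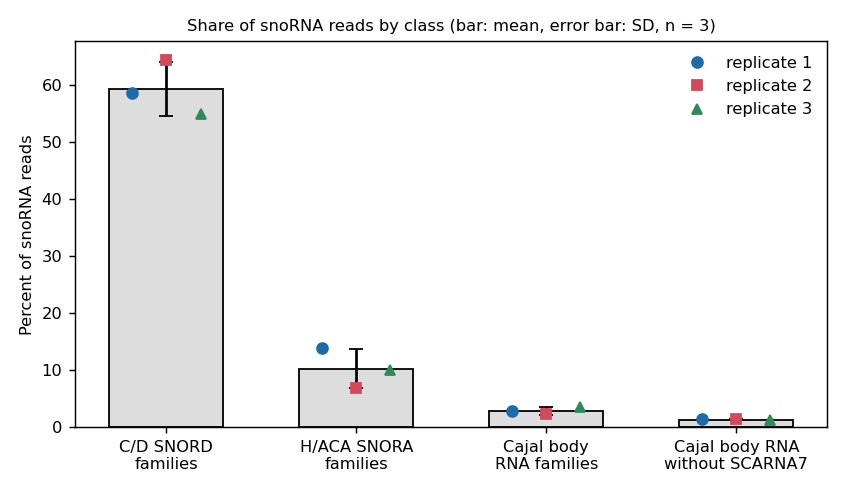
Percent of the snoRNA reads (y axis) taken by H/ACA SNORA families, Cajal body RNAs and C/D SNORD families in each of the 3 libraries (points), with bars at the mean and error bars of the SD (n = 3); the bar at the right gives the Cajal body RNAs without SCARNA7, with a mean of 1.38%. The SNORA share lies between 6.97% and 13.8%, the Cajal body share between 2.32% and 3.66% and the SNORD share between 55.0% and 64.5%, with no overlap between these 3 classes.

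SNORA reads outnumbered Cajal body RNA reads in every library, 4.89-fold in replicate 1, 3.01-fold in replicate 2 and 2.76-fold in replicate 3. The mean log2 ratio was 1.78 ± 0.44 (SD, n = 3), above 0 in 3 of 3 libraries, and a two-sided exact permutation test that flips the signs of the 3 ratios gave p = 0.25. That is the smallest p that 3 libraries allow, so no such test here can pass a threshold of 0.05. SNORD reads outnumbered the reads of all members 3.52-, 6.94- and 4.00-fold, a mean log2 ratio of 2.20 ± 0.52 (exact p = 0.25, n = 3).

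Per family the order of the SNORA and Cajal body RNAs was not settled. The mean count of a SNORA family was 480.4, 135 and 220 reads in replicates 1 to 3, against 405, 185 and 328 for a Cajal body family. The SNORA families were thus higher in replicate 1 and lower in the other 2 libraries, with a mean log2 ratio of -0.26 ± 0.44 (exact p = 0.5, n = 3). Leaving out the most abundant family of each class, SNORA7 and SCARNA7, turned this mean log2 ratio to 0.56, and taking the median family of each class turned it to 0.16. Per family a SNORD entry held more reads than a member entry, with a mean log2 ratio of 1.99 ± 0.52.

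Most of the member families were found in every library. An entry is a member only if it had a read in some library, so families never seen are not among the 87. At least 1 read was counted for 84, 77 and 81 of the 87 members in replicates 1, 2 and 3, and 74 had reads in all 3. Among the SNORA families 59 of 70 were seen in all libraries, 7 in 2 and 4 in 1, and 55 had at least 10 reads in each. Among the Cajal body RNAs 15 of 17 were seen in all libraries, the other 2 in replicate 1 only, and 13 had at least 10 reads in each. For comparison, 92 of the 101 SNORD families and 125 of the 305 remaining snoRNA entries were seen in all libraries.

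Reads of the SNORA class were spread over many families. The most abundant family took 11.7% ± 3.11 of the SNORA reads (SD, n = 3), the first 10 took 49.8% ± 2.51 and the first 20 took 73.4% ± 0.208. The Cajal body class, which holds fewer families, had 50.8% ± 13.9 of its reads in SCARNA7 and 83.6% ± 3.78 in its first 5 families. The median SNORA family held 0.0660% of the snoRNA reads and the median Cajal body family 0.0527%. These are shares of reads, not divided by length, and annotated genes ran from 121 to 196 bases for the matched SNORA families (median 132) and from 79 to 414 bases for the matched Cajal body families (median 140).

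SNORA7, whose mouse gene Snora7a lies in the ribosomal protein gene Rpl32, was the most abundant SNORA family by mean share. It had 2781, 1176 and 2207 reads in replicates 1 to 3, or 1.15%, 0.870% and 1.45% of the snoRNA reads (1.15% ± 0.290, SD, n = 3). SNORA58 followed with 2562, 645 and 1354 reads, 0.807% ± 0.298 of the snoRNA reads. SNORA7 was above SNORA58 in each library, but the ranges of the pair overlapped.

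The next 8 SNORA families by mean share lay close together, from 0.453% down to 0.337% of the snoRNA reads, and neighbours in this order differed by less than their SD. SNORA38 was the steadiest, with 1230, 576 and 651 reads and a share of 0.453% ± 0.0461. SNORA54 had 2063, 188 and 447 reads, a share of 0.427% ± 0.374 in which replicate 1 stood 6.11-fold above replicate 2. SNORA81, of the Eif4a2 gene, had 1449, 434 and 518 reads (0.419% ± 0.154), again highest in replicate 1.

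SNORA62/SNORA6 had 1504, 418 and 452 reads, 0.408% ± 0.183 of the snoRNA reads. SNORA3/SNORA45, whose gene Snora3 lies in the ribosomal protein gene Rpl27a, had 1189, 250 and 679 reads (0.373% ± 0.165), and SNORA70, of Rpl10, had 1282, 210 and 590 reads (0.357% ± 0.188). Each of these 3 families had its highest share in replicate 1. SNORA53 went the other way, with 748, 648 and 393 reads (0.348% ± 0.116) and its highest share, 0.479%, in replicate 2. SNORA5, whose gene Snora5c lies in Tbrg4, had 991, 326 and 549 reads (0.337% ± 0.0860).

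**Figure D2:**
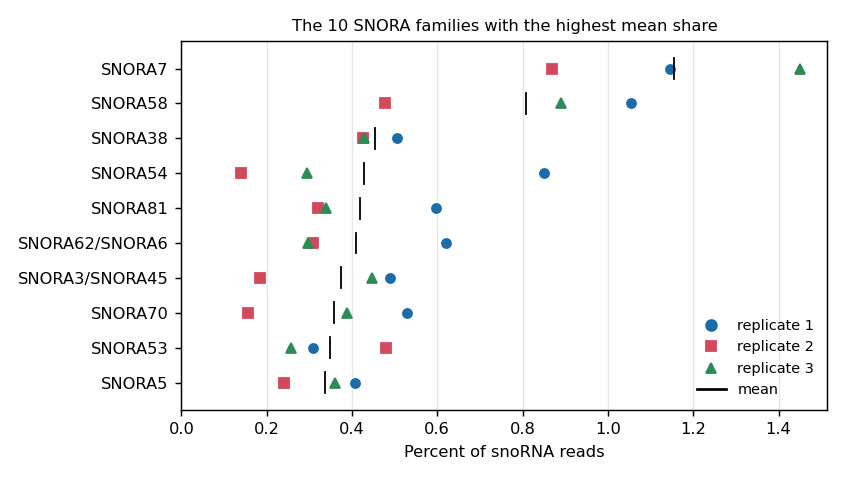
Percent of the snoRNA reads (x axis, linear from 0) of the 10 SNORA families with the highest mean share, as points for each library and a short black line at the mean (n = 3). SNORA7 leads at 1.15%, SNORA54 spans 0.139% to 0.850%, and replicate 1 is highest in 8 of the 10 families, SNORA7 and SNORA53 being the exceptions.

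Divided by the length of the annotated gene, SNORA7 held 0.825% ± 0.207 of the snoRNA reads per 100 bases (SD, n = 3). SNORA3/SNORA45 held 0.283% ± 0.125, SNORA62/SNORA6 0.274% ± 0.123, SNORA70 0.260% ± 0.137, SNORA5 0.247% ± 0.0633 and SNORA81 0.236% ± 0.0865 per 100 bases. On this scale too SNORA7 came first of the 6, and the other 5 did not differ beyond their spread.

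Many of the matched SNORA genes lay in genes for ribosomal proteins. The 11 families of ribosomal protein genes had a median share of 0.169% of the snoRNA reads (range 0.0189 to 1.15), the 4 of translation factor genes 0.0306% (0.0236 to 0.419), the 6 of non-coding host genes 0.176% (0.0266 to 0.316) and the 12 of other protein-coding genes 0.0361% (0.00832 to 0.337). SNORA15, whose host Cct6a is protein-coding in RefSeq but not in GENCODE, is counted here with the protein-coding hosts, and counting it as GENCODE does gave 0.0931% for 7 non-coding hosts. These ranges overlap widely, and 3 matched families lay in no annotated host. Where several genes contained a snoRNA gene, a protein-coding gene was taken as host before a non-coding gene, and the opposite choice was not tried. The protein-coding hosts include Gm28285 for Snora74a and Gm42715 for Snora30. The 34 families with no gene found by symbol had a median of 0.0648%, so these medians cover 36 of the 70 families.

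SCARNA7 was the most abundant member of all. It is a C/D box RNA of the Cajal body that guides methylation of U1 snRNA, the RNA that recognises the start of an intron. It had 3289, 1213 and 3674 reads in replicates 1 to 3, which were 1.35%, 0.897% and 2.41% of the snoRNA reads (1.55% ± 0.777, SD, n = 3). Replicate 3 was the highest and replicate 2 the lowest, 2.69-fold apart, and its range overlapped that of SNORA7. Without SCARNA7 the Cajal body share was 1.48%, 1.42% and 1.25%, a mean of 1.38% ± 0.121, and replicate 3 was then the lowest library instead of the highest.

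SCARNA16 also guides modification of U1 and was the second Cajal body family. It had 638, 643 and 498 reads, 0.355% ± 0.109 of the snoRNA reads, with the highest share in replicate 2. SCARNA3 had 780, 277 and 303 reads (0.242% ± 0.0690), and SCARNA1, a guide for U2, had 554, 278 and 370 reads (0.226% ± 0.0188). SCARNA3 and SCARNA1 did not differ beyond their spread. SCARNA20, a guide for U12 of the minor spliceosome, had 384, 126 and 56 reads and a share in replicate 1 that was 4.30-fold that in replicate 3. Divided by annotated length, SCARNA3 held 0.173% ± 0.0493 of the snoRNA reads per 100 bases (Scarna3a, SD, n = 3), below the mean of SNORA81 by less than the SD of SNORA81.

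The other Cajal body families were below 0.1% of the snoRNA reads on average. SCARNA13, an RNA for U5, had 166, 114 and 114 reads (0.0758% ± 0.00802), and SCARNA6, which carries both box kinds and also acts on U5, had 121, 109 and 117. SCARNA11, for U5, had 193, 67 and 86 reads, and SCARNA18, for U1, had 161, 77 and 53. Each of these was detected in every library by more than 50 reads. Among the guides for U2, SCARNA2 had 110, 86 and 73 reads, SCARNA8 had 151, 67 and 61, SCARNA4 had 148, 33 and 55, and SCARNA15 had 59, 19 and 59.

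A few Cajal body families had 1 read or 0 reads in at least 1 library, though some had more in another. SCARNA21, for U12, had 34, 1 and 53 reads, and SCARNA23 had 17, 27 and 1. SCARNA14 was counted 72 times in replicate 1 and not in the others. SCARNA17, which acts on U4, had 1 read in replicate 1 and 0 in the others, where a count of 0 allows, by the one-sided limit, up to 0.00222% and 0.00197% of the snoRNA reads.

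**Figure D3:**
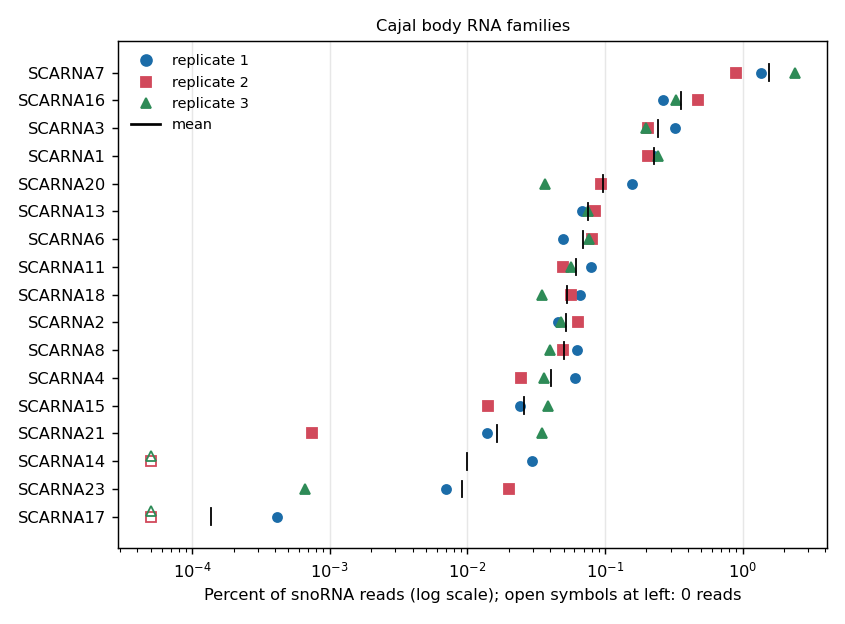
Percent of the snoRNA reads (x axis, log scale) of each Cajal body family in each library (points) with a short black line at the mean; open symbols at the left edge stand for 0 reads. SCARNA7 lies at 0.897% or more in every library, SCARNA16, SCARNA3 and SCARNA1 lie between 0.199% and 0.475%, and SCARNA14 and SCARNA17 have reads in replicate 1 only.

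By box type, the 3 C/D families SCARNA2, SCARNA7 and SCARNA17 held 1.40%, 0.961% and 2.46% of the snoRNA reads (1.61% ± 0.771, SD, n = 3). The 13 H/ACA families together held 1.38%, 1.28% and 1.12% (1.26% ± 0.131), and SCARNA6, the only mixed family, held 0.0691% ± 0.0168. The C/D sum was above the H/ACA sum in replicates 1 and 3 and below it in replicate 2. The H/ACA families alone varied less between libraries than the SNORA families that carry the same boxes, with an SD of 0.131 around 1.26% against 3.44 around 10.3%.

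By target, the 3 guides for U1 held 1.96% ± 0.714 of the snoRNA reads (SD, n = 3) and the 5 for U2 held 0.395% ± 0.0333. Each family was listed under a single target or none, so any further target of a family is not counted. The 3 for U5 held 0.207% ± 0.00847, the 2 for U12 held 0.113% ± 0.0528, and SCARNA3, SCARNA14 and SCARNA23, which were assigned no target, held 0.261% ± 0.0850. Reads of the snRNAs were counted in the EVs too, and they may come from fragments. U1 took 0.169% ± 0.0400 of the clean reads, U6 0.0732% ± 0.0393, U2 0.0464% ± 0.0320, U4 0.0297% ± 0.0172 and U5 0.0222% ± 0.0133. U1 was the most abundant of the 5 snRNAs in each library by reads, and its guides were the most abundant target group. Without SCARNA7, the remaining U1 guides SCARNA16 and SCARNA18 held 0.408% ± 0.109 of the snoRNA reads. That mean was still above the 0.395% of the U2 guides, but by less than its SD. SCARNA16 and SCARNA18 together were below the U2 guides in replicate 1, 0.329% against 0.421%, and in replicate 3, 0.362% against 0.406%. In replicate 2 they were above them, 0.532% against 0.357%. Of the minor spliceosome, U12 took 0.00979%, U6atac 0.00466%, U11 0.00132% and U4atac 0.000920% of the clean reads on average.

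Outside the members, vertebrate telomerase RNA, which carries an H/ACA domain, had only 1, 2 and 0 reads. RNase MRP, an RNA enzyme of ribosomal RNA processing, had 1845, 880 and 905 reads, and nuclear RNase P, which trims tRNA precursors, had 2756, 1201 and 2650. These counts are given for scale only, since the lists were not compared by a test.

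Most SNORA families had their highest share of the snoRNA reads in replicate 1, whereas by that share the Cajal body families were divided among the libraries. By share of clean reads this contrast was gone, and replicate 1 was highest for 48 of 55 SNORA, 12 of 13 Cajal body and 77 of 91 SNORD families. Over the 55 SNORA families with at least 10 reads in each library, the median ratio of highest to lowest share was 2.32 (range 1.13 to 8.19), against 1.62 (1.18 to 4.30) for 13 Cajal body families and 1.74 (1.05 to 11.95) for 91 SNORD families. By share of snoRNA reads, replicate 1 was highest for 40 of the 55 SNORA families and replicate 2 the lowest for 38. Of the 13 Cajal body families 6 were highest in replicate 1, 4 in replicate 2 and 3 in replicate 3, and of the 91 SNORD families 42, 22 and 27 (by share of clean reads, 12, 0 and 1 of the Cajal body families). The families of a library share 1 denominator and are not replicates, so these counts are a description with no p.

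Between replicates 1 and 2 the median log2 ratio of the share was 0.98 for the SNORA families, with 46 of 55 higher in replicate 1. For the Cajal body families it was 0.33, with 9 of 13 higher, and for the SNORD families 0.29, with 56 of 91 higher. Between replicates 3 and 2 the medians were 0.55, -0.07 and 0.13, and between replicates 1 and 3 they were 0.37, -0.08 and 0.05. The SNORA median was thus the largest of the 3 classes for each of these pairs of libraries. The share of snoRNA reads and of intron reads was highest in replicate 1, as given above, and its part in this shift was not tested.

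**Figure D4:**
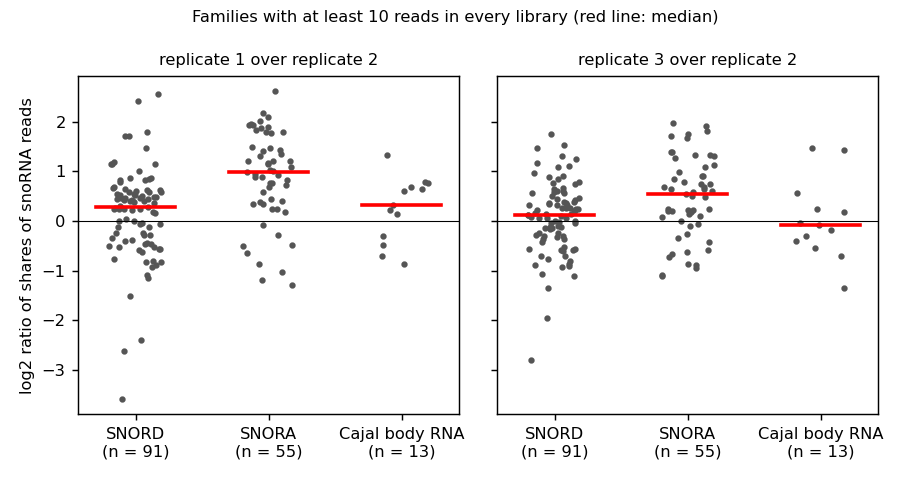
Log2 ratio of a family's share of the snoRNA reads (y axis) for replicate 1 over replicate 2 (left) and replicate 3 over replicate 2 (right), for SNORA, Cajal body and SNORD families with at least 10 reads in every library; each point is a family and the red line is the median. Between replicates 1 and 2 the median is 0.98 for 55 SNORA families, 0.33 for 13 Cajal body families and 0.29 for 91 SNORD families, and between replicates 3 and 2 it is 0.55, -0.07 and 0.13.

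Of the members with at least 100 reads in every library, SNORA54, SNORA16B/SNORA16A and SNORA21 varied the most. SNORA16B/SNORA16A had 1084, 158 and 586 reads and a share 3.82-fold higher in replicate 1 than in replicate 2. SNORA21 had 671, 212 and 113 reads and was 3.72-fold higher in replicate 1 than in replicate 3. SCARNA1, SNORA38 and SCARNA13 varied the least, by 1.18-, 1.19- and 1.23-fold. SNORA75, with 219 reads in replicate 1 and 0 in both others, had the most reads of the members found in a single library.

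Over 68 members with at least 10 reads in every library, the chi-square value divided by its degrees of freedom was 41.7 between replicates 1 and 2, 52.8 between replicates 1 and 3 and 30.0 between replicates 2 and 3. Counting noise of independent reads alone would give a value near 1. The value also holds the spread between separately pooled EV preparations and any PCR copies, and it shows that no pair was the same library counted again. The order of the families was similar all the same, with Spearman's rho across the 87 members of 0.856, 0.865 and 0.867, a description over families that are not independent.

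Some H/ACA and Cajal body RNA genes also hold a miRNA gene on the same strand, and reads that match both were counted as miRNA, since the authors gave the miRNA database priority. Of 10 such overlaps 7 had miRNA reads. The miRNA genes Gm49346 at Snora81 and Gm49347 at Snora74a have no miRNA name by which an entry could be looked up, so their reads are not known. Mir6516 was looked up and had 0 reads in each library. The miRNA sequences below, from RefSeq for GRCm38.p6, are identical to a stretch of the host RNA, with the seed (bases 2 to 8) in capitals.
mmu-miR-1839-5p: aAGGUAGAuagaacaggucuug
mmu-miR-1843b-5p: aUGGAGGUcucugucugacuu
mmu-miR-1843a-5p: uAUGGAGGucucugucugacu
mmu-miR-664-3p: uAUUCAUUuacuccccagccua

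Mature miR-1839-5p covers bases 65 to 86 of a scaRNA gene of 127 bases that GENCODE also names Mir1839 (miRNA at chr7:81529919-81529940, plus strand). Its mature miRNA and hairpin entries together had 729, 914 and 1009 reads in replicates 1 to 3, of which 511, 542 and 521 were on the mature miRNA. In each library this was more than any Cajal body family had in the snoRNA class except SCARNA7 and, in replicate 1, SCARNA3, and the gene is tied to none of the 17 families by symbol.

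miR-1843b-5p covers bases 80 to 100 of Scarna3a (chr1:159340362-159340382, plus strand) and miR-1843a-5p bases 78 to 98 of Scarna3b (chr12:80391654-80391674, minus strand), just after the H box match shown above. The seeds of the pair are shifted against each other by 1 base. Entries of the miRNA had 36, 35 and 31 reads for Mir1843b and 60, 1 and 5 for Mir1843a, against 780, 277 and 303 for the SCARNA3 family. miRNA reads were thus few beside the family's own count.

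Of the other overlaps, the mir-3084-1 hairpin in Snora19 had 41, 74 and 33 reads, against 57, 65 and 38 for the SNORA19 family, so that in replicate 2 the miRNA entry held more. Mir1291 in Snora34 had 74, 0 and 18 reads against 34, 0 and 30 for SNORA2/SNORA34. Mir3069 in Scarna13 had 27, 41 and 0 reads against 166, 114 and 114, and Mir664 in Snora36b had 5, 29 and 3 against 145, 114 and 81 for SNORA36. A read given to a miRNA entry is not in the family's count, and whether it would otherwise have been counted there was not tested. Some miRNA genes reach beyond the snoRNA gene, as Mir1291 does, which shares 92 of its 117 bases with Snora34. With these numbers SCARNA13 and SNORA36 stayed above their miRNA in every library.

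**Figure D5:**
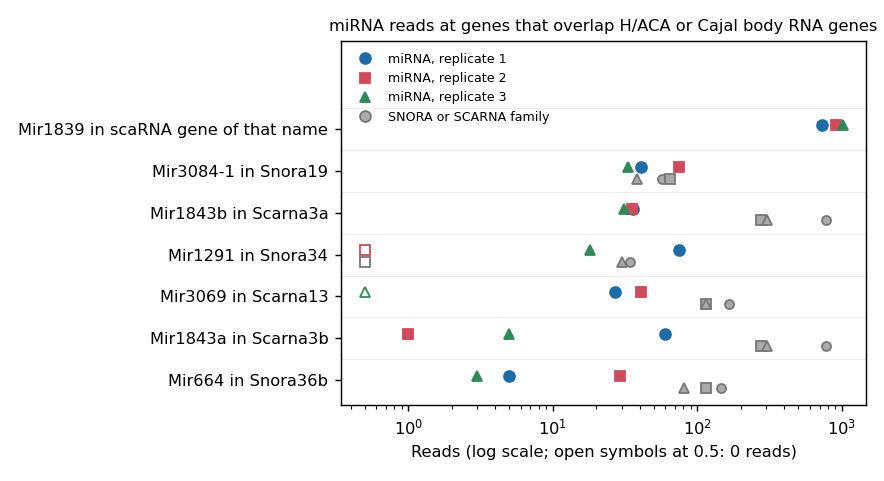
Reads (x axis, log scale) counted for miRNA entries (coloured) and for the SNORA or SCARNA family (grey) at the 7 overlapping genes with miRNA reads, 1 symbol shape per library, with open symbols for 0 reads. Mir1839 has between 729 and 1009 reads and no family by symbol, while SCARNA3 lies at 277 reads or more against 60 or fewer for its miRNAs.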

How the data were processed

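Small RNA of testis EVs was sequenced on the BGISEQ-500 platform in 3 libraries, labelled as biological replicates. The authors mapped clean reads with Bowtie2 and cmsearch and gave each read to 1 class, with miRNA and piRNA databases placed before snoRNA and Rfam. The submitters' processing notes name mm10. The deposited files hold raw counts, whole numbers of reads per small RNA and per class, together with the percent that each class takes of the clean reads. A deposited column whose header names molecular identifiers held the counts scaled to the clean reads on entries that name a small RNA and was not used. No molecular identifiers were counted, so intervals cover counting error only.

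Counts of members were divided by the snoRNA reads of the library and given as mean ± SD (n = 3), with exact Clopper-Pearson 95% intervals. For ratios within libraries the signs of the log2 values were flipped in an exact permutation test (two-sided). Libraries were compared by a chi-square statistic, tested on simulated data. SNORA73, with 0.532% ± 0.220 of the snoRNA reads, was left out by the member rule. Box types and snRNA targets of the Cajal body RNAs came from lists of textbook knowledge. Genes, positions and sequences came from GENCODE vM21 (GRCm38) by symbol, and mature miRNAs from RefSeq. A gene counts as exonic where it overlaps an exon of any annotated transcript of the host.

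Families named were every Cajal body family with reads, the 10 SNORA families with the highest mean share, the 3 most and the 3 least variable members with at least 100 reads in every library, and the member of a single library with the most reads. SNORA19, SNORA2/SNORA34 and SNORA36 were named for their miRNA overlap, and SNORA15 for its host, after their values were seen. Members and lists were chosen with earlier results of these data known. Alternatives tried were other denominators, counting entries outside the rule, host types of GENCODE alone, leaving out the top families, a minimum of 10 reads, and leaving out each library. Python 3.11.15, pandas 2.3.3, numpy 2.4.6 and scipy 1.17.1 were used.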

Additional observations from a re-analysis of the deposited data

Results flagged for a closer look

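The 5 related entries outside the member rule also had reads in every library. ACA64, which RefSeq lists as another name of the H/ACA gene Snora78, had 1403, 309 and 600 reads in replicates 1 to 3, or 0.400% ± 0.175 of the snoRNA reads (SD, n = 3). By that share it would stand among the 10 most abundant SNORA families. U85 and U89, Cajal body RNAs, had 583, 218 and 429 reads (0.228% ± 0.0612) and 559, 406 and 454 reads (0.276% ± 0.0398). U2-19 had 83, 115 and 120 reads (0.0660% ± 0.0277) and U2-30 had 14, 41 and 14 (0.0151% ± 0.0133). All are signals in entries that the comparisons above do not use, and counting them in, an alternative chosen after seeing the data, changed the mean log2 ratio of SNORA to Cajal body reads from 1.78 to 1.57.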

How the results depend on the processing

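Of 51 alternative values for the 7 results on shares, ratios, detection and host classes, 42 were labelled the same, 6 moved and 3 reversed. Ratios were judged by sign alone, shares by a shift smaller than their SD, and detection by a fixed fold limit. With 3 libraries, leaving out a library cannot shift a mean share by its SD. Those values could only be labelled the same, so they say nothing about robustness. No p entered the labels. The SNORA share was 0.0740% of clean reads and 0.205% of reads annotated as small RNA, and the Cajal body share 0.0196% and 0.0547%, by the change of denominator alone. Leaving out the most abundant family gave a Cajal body share of 1.38%. The median of the SNORA families with non-coding hosts was 0.0931% by GENCODE's host types alone, against 0.176% with RefSeq's, a choice made after seeing the data. The log2 ratio of mean reads per SNORA to Cajal body family, -0.26, reversed to 0.56 without the most abundant family of each class (exact p = 0.5), to 0.58 with the H/ACA and mixed Cajal body families alone (exact p = 0.25) and, chosen after seeing the data, to 0.16 with the median over families (exact p = 0.75). The log2 ratio of SNORA to Cajal body reads stayed above 0, from 1.53 to 2.90, and was 2.67 without the most abundant family of each class and 2.90 with the H/ACA and mixed Cajal body families alone.

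Leaving out each library in turn gave a SNORA share of 8.54 to 11.98%, a Cajal body share of 2.58 to 3.25%, and log2 ratios of 1.53 to 1.94 for SNORA to Cajal body reads, -0.51 to -0.10 per family and 1.91 to 2.40 for SNORD to member reads. With 3 libraries no test could pass 0.05. The depth limits families under 10 reads, of which 19 of the 87 members had at least 1 such library. No comparison between groups was possible because the series has a single group, and the tests above pair classes of RNA within a library.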
